A study of Swertia japonica with 2 samples.

Results

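The longest transcripts assembled for Swertia japonica, a gentian relative used as a bitter stomachic in Japan, were taken as all unigenes of at least 5000 bases. A unigene is a transcript pieced together from reads without a genome. The rule used the deposited transcript length alone, whatever the expression, and found 247 members among 81729 unigenes. Both groups were parts of plants aged 6 months and grown outdoors in a medicinal garden: aerial tissues and roots, with 1 poly(A)-selected, strand-specific library each. No treatment was applied, and the labels give no cultivar, nor the number of plants behind a library. The libraries held 5351257 expected counts in aerial tissues and 4207068 in roots. Each organ had a single library, so differences have no replicate check and describe these 2 libraries, without p-values. The intervals given reflect counting error and not the variation between plants.

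Very long plant messages commonly encode very large proteins. Among them are callose synthases, which lay down a wall polymer at plasmodesmata and sieve plates, ABC transporters, myosins and kinesins that move cargo along the cytoskeleton, chromatin remodelling enzymes, the splicing factor PRP8 and giant ubiquitin ligases. Many of these are general parts of every plant cell. No gene names, functions or sequences were used here, so no member can be assigned to any of these classes, and the labelled organs could not be checked against marker genes. Members are therefore described by length, level and identifier. In a de novo assembly a transcript appears whole where overlapping reads cover it from end to end. A long transcript yields more reads than a short one at the same number of molecules, so levels of different unigenes are compared below in TPM, which is scaled by length, and counts are given for depth.

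The 247 members ran from 5009 to 12347 bases, with a median of 5755, and together spanned 1493115 bases. They were 0.302% of the unigenes and 2.07% of the assembled bases. Of the members, 155 were under 6000 bases, 62 of at least 6000 and under 7000, 18 of at least 7000 and under 8000 and 12 of 8000 bases and over. The 2 unigenes nearest to the threshold from below, Unigene12188 and Unigene39820, were 4995 and 4998 bases long, with 16.3 and 5.78 TPM in aerial tissues and 17.7 and 4.23 TPM in roots. The 2 nearest from above, Unigene39412 and Unigene10612, were both 5009 bases long, with 16.2 and 4.90 TPM in aerial tissues and 22.4 and 5.16 TPM in roots.

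The identifiers of the assembled transcripts take several forms, and the very long unigenes were spread over all of them. Contigs whose identifier carries the word leaf supplied 102 members (41.3%, against 34.6% of all unigenes). The TR form, in which component, gene and isoform numbers are part of the name, supplied 83 (33.6%, against 50.7%). Scaffolds supplied 46 (18.6%, against 4.69%), and identifiers starting with C supplied 16 (6.48%, against 10.02%). Of all scaffolds, 1.20% were at least 5000 bases long, against 0.200% of the TR form. The leaf-named contigs included the most abundant members of both libraries.

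Every one of the 247 members was detected in both organs, with a median level above that of all unigenes. No member was at 0 in either library, whereas 20.7% of all unigenes were at 0 in at least 1 of them. Nearby lengths gave much the same as the members. That share was also 0% from 4000 to under 5000 bases, 0.123% from 3000 to under 4000 and 0.266% from 2000 to under 3000. The lowest count of a member was 58 in aerial tissues and 9 in roots, and the median count was 226 and 208. The median level was 7.19 TPM in aerial tissues and 8.23 TPM in roots, against 3.56 and 3.87 TPM over all unigenes. The quartiles of the members were 5.085 and 10.8 TPM in aerial tissues and 5.21 and 12.2 TPM in roots. All 247 members reached 1 TPM in aerial tissues and 237 (96.0%) did in roots, against 84.9% and 84.3% of all unigenes. Among unigenes of at least 4000 and under 5000 bases, 99.8% and 96.8% did. At the upper end, 25 members reached 20 TPM in the aerial library and 27 did in the root library. Of all 81729 unigenes, 6803 and 7495 did. Of the 439 unigenes of at least 4000 and under 5000 bases, 53 and 52 did, so the members did not stand out among long unigenes.

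The median level per length was similar among long unigenes, and lower among the 12 of 8000 bases and over. In aerial tissues the median was 7.36 TPM for unigenes of at least 2000 and under 3000 bases, 7.32 TPM for those of at least 4000 and under 5000 and 7.19 TPM for the members. In roots the same classes stood at 7.56, 7.40 and 8.23 TPM. Within the members, Spearman's rho between length and TPM was 0.05 in aerial tissues and 0.02 in roots over 247 unigenes, as a description: the points share a library, and length enters the TPM itself. The 12 members of 8000 bases and over had a median of 4.99 TPM in aerial tissues and 6.10 TPM in roots. The 18 members of at least 7000 and under 8000 bases had 7.56 and 9.16 TPM, so there was no steady fall with length.

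A single unigene made up a large part of the signal of the very long class. Unigene13473, a leaf-named contig of 6822 bases, stood at 1028 TPM in the aerial library (36074 counts) and at 2482 TPM in the root library (72715 counts). It held the highest count of any unigene in roots and the third highest in aerial tissues, and ranked 19 and 82 by TPM. It took 1.73% of all root counts (95% Wilson interval 1.72 to 1.74) and 0.674% of all aerial counts (0.667 to 0.681). In CPM it was 2.56-fold higher in roots (95% exact interval 2.53 to 2.60), which is under the 4-fold used for calls below. Its level was 25.3% of the summed TPM of all members in aerial tissues and 48.9% in roots.

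Which organ held the larger share of very long RNA depended on a few unigenes. With it, the members held 0.406% of aerial TPM and 0.507% of root TPM. Without it, a choice made after seeing the data, they held 0.303% and 0.259%, so the order turned. Without the 4 members highest in aerial tissues, which include it and were also chosen after seeing the data, they held 0.234% and 0.254%, and the order turned back. In expected counts the shares were 2.44% in aerial tissues (95% Wilson interval 2.43 to 2.46) and 3.30% in roots (3.29 to 3.32), and 1.77% and 1.57% without it. Lowering the length threshold to 4000 bases, which keeps Unigene13473 in the set, gave 1.03% of aerial and 0.985% of root TPM.

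**Figure D1:**
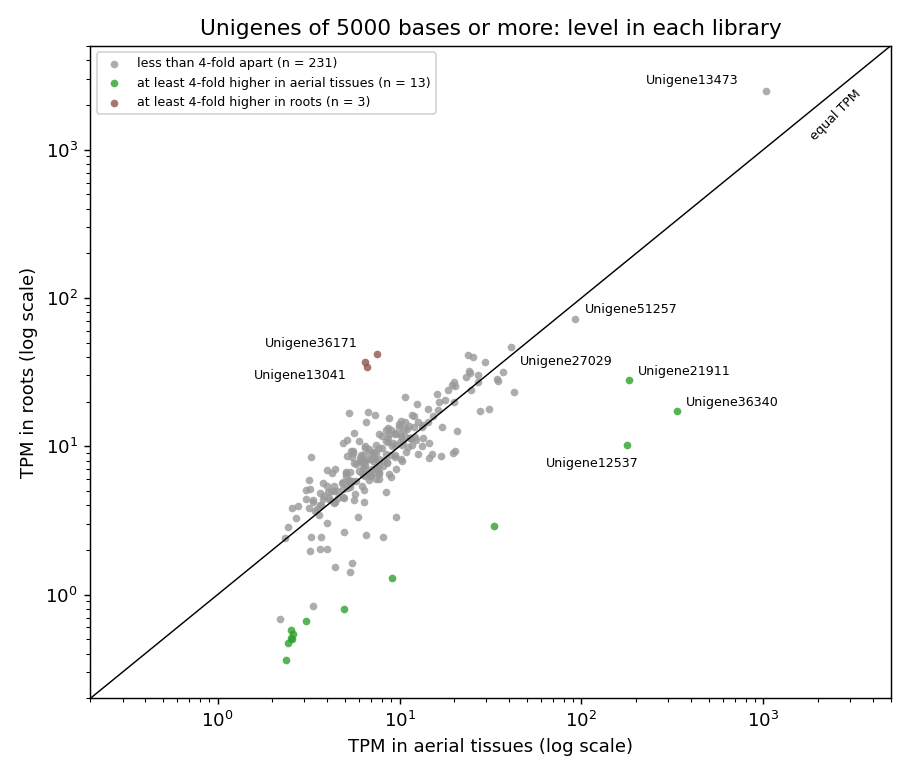
Level of each of the 247 unigenes of 5000 bases or more in aerial tissues (x axis, TPM, log scale) and roots (y axis, TPM, log scale), 1 library each; the line marks equal TPM and colours mark a difference of at least 4-fold in CPM. Most points lie in a cloud along the line around 7 to 8 TPM, Unigene13473 stands apart at 1028 and 2482 TPM, and 3 abundant green points lie far under the line at 177 to 335 TPM in aerial tissues.

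Beyond Unigene13473, the members over 100 TPM were so in aerial tissues. Above 100 TPM there were 4 members in aerial tissues (1.62%, against 1.53% of all unigenes) and 1 in roots (0.405%, against 1.62%). The aerial share was thus near that of all unigenes. The root share, which is 1 member, was lower. It was also low from 4000 to under 5000 bases (0.456%) and from 3000 to under 4000 (0.613%). Unigene36340 (7233 bases) had 12480 aerial and 537 root counts, or 335 and 17.3 TPM. Unigene21911 (5721 bases) had 5354 aerial and 683 root counts, or 183 and 27.9 TPM. Unigene12537 (6085 bases) had 5535 aerial and 265 root counts, or 177 and 10.2 TPM. These 3, all leaf-named contigs, passed 100 TPM in the aerial library and not in the root library. In roots the next levels after Unigene13473 were much lower: Unigene51257 (5369 bases) had 2539 aerial and 1657 root counts, or 92.6 and 72.4 TPM. Unigene27029 (5906 bases) had 1242 aerial and 1177 root counts, or 41.1 and 46.6 TPM. Both lay close to equal CPM, the former 1.20-fold higher in aerial tissues and the latter 1.21-fold higher in roots. The 4 members highest in aerial tissues held 42.4% of the members' aerial TPM, and the 4 highest in roots, of which Unigene13473 is the shared one, held 52.1% of their root TPM.

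For the comparison of the organs, ratios of CPM were taken wherever the libraries together held at least 20 counts, with lower counts raised to a floor of 3, and a difference was called at 4-fold. All 247 members had enough counts, against 33536 (41.0%) of all unigenes. So had all 439 unigenes of at least 4000 and under 5000 bases. At least 4-fold higher in aerial tissues were 13 members (5.26%), against a background of 8.31% of all compared unigenes. At least 4-fold higher in roots were 3 members (1.21%), against a background of 6.33%. At 2-fold, 23 members (9.31%) were higher in aerial tissues, against 15.9%, and 13 (5.26%) in roots, against 19.1%. Less than 2-fold apart were 211 members (85.4%), against 65.0%. Both called shares of the very long unigenes were thus below those of the whole table, the root-higher share by more at this count minimum. On the aerial side the members' 5.26% was close to 5.47% from 4000 to under 5000 bases and 5.40% from 3000 to under 4000. On the root side those classes had 2.96% and 1.90%. Among unigenes with at least 200 and under 1000 counts, 1 of 185 members was called on each side (0.541% each). Over all lengths 8.35% were called for aerial tissues and 4.71% for roots there, and 1.75% and 2.80% from 4000 to under 5000 bases. The upper limit leaves out called members with more counts, among them Unigene36340 on the aerial side and Unigene36171 on the root side. With 1 member on each side, the sides cannot be ranked in this range.

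The middle of the members was close to that of all unigenes, and their spread was narrower. The median log2 ratio, roots over aerial tissues, was 0.22 for the members, against 0.27 over all compared unigenes, a difference of -0.04. The sign of the members' median depends on the scaling. Scaling by TMM moved the median of all compared unigenes by -0.27, to 0.00, and put the members at -0.05. With TMM, 15 members (6.07%) passed 4-fold on the aerial side, against 9.82% of all compared unigenes, and 3 (1.21%) on the root side, against 5.07%. The interquartile range of the log2 ratio was 0.61 for the members and 1.28 for all compared unigenes. Counting error was smaller too, with 95% exact intervals of a median half-width of 1.21-fold for the members and 1.60-fold for all.

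The narrow spread continued a gradient over length. Less than 2-fold apart were 73.0% of the compared unigenes from 2000 to under 3000 bases, 78.0% of those from 3000 to under 4000, 80.2% of those from 4000 to under 5000 and 85.4% of the members. The interquartile range of the log2 ratio fell over the same classes from 1.05 to 0.88, 0.87 and 0.61. Read depth rises with length, and its part was looked at by taking unigenes with at least 200 and under 1000 counts. There the shares under 2-fold were 73.2%, 79.2%, 86.7% and 91.4% in the same order (169 of 185 members), against 68.5% of all 8115 unigenes with such counts. In that count range 1 member was called higher in aerial tissues and 1 in roots (0.541% each), against 8.35% and 4.71% of the 8115 unigenes. From 4000 to under 5000 bases, 1.75% and 2.80% were called there. Inside the very long class there was no such gradient, with a Spearman's rho of -0.04 between length and the size of the log2 ratio over 247 members. These are descriptions without a test, and forms of 1 gene are not independent.

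**Figure D2:**
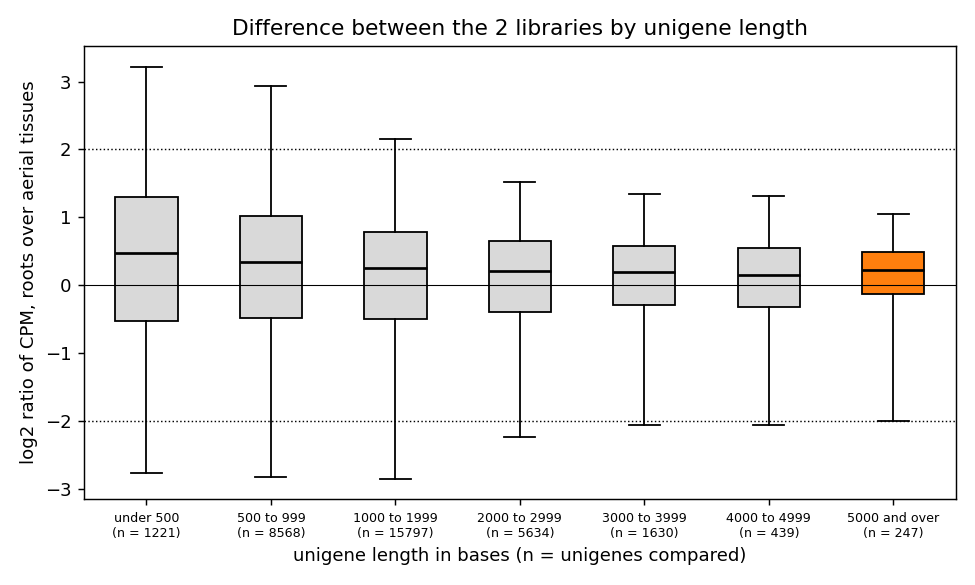
Log2 ratio of CPM, roots over aerial tissues (y axis), by class of unigene length in bases (x axis), over unigenes with at least 20 counts; the line in each box is the median, the box the quartiles and the whiskers the range from 5% to 95% of the unigenes, and dotted lines mark 4-fold. The boxes narrow with length, and the class of 5000 bases and over, in orange, has an interquartile range of 0.61.

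The aerial-higher members were of 2 kinds by depth. In 5 the whole 95% exact interval lay past 4-fold, a share of 2.02% against a background of 4.60%. Unigene36340 was 18.3-fold higher in aerial tissues (95% exact interval 16.8 to 19.96) and Unigene12537 was 16.4-fold higher (14.5 to 18.7). The other 3 of these, named after their values were seen, were Unigene51967 at 10.8-fold, Unigene11406 at 6.68-fold and Unigene21911 at 6.16-fold. The remaining 8 rested on 65 to 157 aerial and 9 to 21 root counts, with levels of 2.39 to 4.97 TPM in aerial tissues and 0.36 to 0.80 TPM in roots. Their folds ran from 4.10 to 6.20, and their intervals reached under 4-fold. Of these 8, 4 were forms of 1 assembled gene, so the 13 aerial-higher members came to 10 when the longest form per TR gene was kept. With at least 100 counts over both libraries, 6 of 239 members were aerial-higher (2.51%, against 8.83% of 16115 unigenes) and 3 root-higher (1.26%, against 5.03%).

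The 3 root-higher members were alike in level and size of difference. Unigene13041 (5074 bases) had 168 aerial and 795 root counts, or 6.50 and 36.8 TPM, and was 6.02-fold higher in roots (95% exact interval 5.09 to 7.15). Unigene36171 (5090 bases) had 195 aerial and 911 root counts, or 7.52 and 42.1 TPM, and was 5.94-fold higher (5.09 to 6.97). The third, Unigene18564 (6585 bases), named after its values were seen, had 6.65 and 34.1 TPM and was 5.44-fold higher in roots. In all 3 the whole interval lay past 4-fold (1.21% of the members, against 3.03%). All 3 were leaf-named contigs, at an ordinary level for a very long unigene in aerial tissues and among the 27 members over 20 TPM in roots. At 8-fold, 0 members were higher in roots, against 2.98% of all compared unigenes, and 3 (1.21%) in aerial tissues, against 3.96%.

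The very longest unigenes were present in both organs, within 2-fold of each other. Unigene11293, a scaffold of 12347 bases, had 271 aerial and 270 root counts, or 4.22 and 5.03 TPM. Unigene37900, a leaf-named contig of 11755 bases, had 197 and 263 counts, or 3.22 and 5.15 TPM. It was the most unequal of the 5 longest, 1.70-fold higher in roots (95% exact interval 1.41 to 2.05). Unigene8623, a scaffold of 11297 bases, had 214 and 197 counts, or 3.64 and 4.02 TPM. Unigene8624, a scaffold of 10697 bases, had 186 and 195 counts, or 3.35 and 4.20 TPM. Unigene28121, a leaf-named contig of 10496 bases, had 278 and 285 counts, or 5.10 and 6.26 TPM. All 12 members of 8000 bases and over lay within 2-fold, with log2 ratios from 0.22 to 0.98. With library totals all 12 were therefore on the root side of equal CPM. Subtracting the TMM shift of 0.27 puts Unigene20266, Unigene8623 and Unigene8190, at 0.22, 0.23 and 0.25, on the aerial side.

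Several very long unigenes are forms of the same assembled gene. The 83 members of the TR form came from 62 TR genes, and 13 of these genes had more than 1 member, 34 members in all. Their forms had similar counts: the median ratio of the highest to the lowest count within a gene was 1.13 in aerial tissues and 1.14 in roots. As an example chosen after the values were seen, the 2 members of TR25435 had 826 and 778 counts in aerial tissues and 394 and 402 in roots. The log2 ratios of the organs spanned a median of 0.21 within a gene and at most 1.20, and in 9 of the 13 genes the span was under 0.5. Whether the same reads were counted for more than 1 form was not tested, so the forms are not independent measurements and the size of each count is uncertain.

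The assembled genes with the most very long forms, TR30905 and TR32958 with 5 each, lay on the aerial side in every form. In TR30905, Unigene57765 had 71 aerial and 9 root counts, Unigene57767 had 73 and 14, Unigene57768 had 83 and 15, Unigene57769 had 68 and 11, and Unigene57770 had 58 and 15. All 5 were lower in roots, and 4 of them passed 4-fold, with folds from 4.10 to 6.20, while Unigene57770 was 3.04-fold higher in aerial tissues. In TR32958 the aerial counts ran from 91 in Unigene65489 to 183 in Unigene65493, and the root counts from 33 in Unigene65492 to 59 in Unigene65493. Its folds ran from 1.52 to 3.50, all higher in aerial tissues, and none was called. In both genes every aerial count was above every root count, also in CPM, which allows for the deeper aerial library. The lowest aerial and highest root CPM were 10.8 and 3.57 in TR30905 and 17.0 and 14.0 in TR32958. Sharing of reads was not tested, so the 5 forms of a gene are not 5 independent observations.

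**Figure D3:**
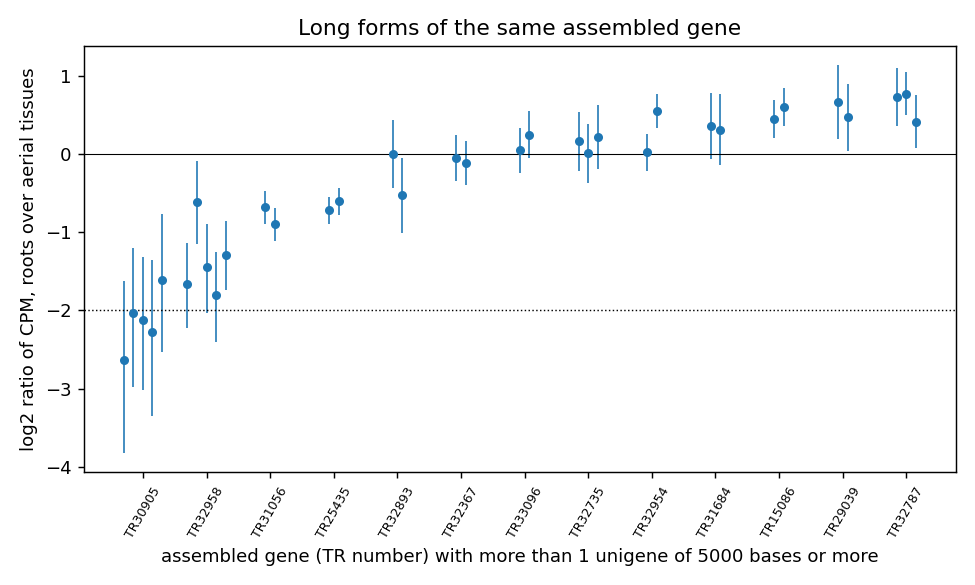
Log2 ratio of CPM, roots over aerial tissues (y axis), of the 34 very long unigenes that share an assembled gene with another one, grouped by TR number (x axis) and ordered by the gene's median; points are unigenes, bars are 95% exact intervals for counting error, and the dotted line marks 4-fold. In 9 of the 13 genes the forms span less than 0.5. All 5 forms of TR30905 and of TR32958 lie below 0, and they span 1.03 and 1.20.

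Shorter forms of the same genes mostly had ratios within 2-fold of those of the long ones. Of the 62 TR genes, 21 also had forms under 5000 bases, 52 in all, of which 39 had enough counts to compare. In 49 of the 57 pairs of a member with a shorter form the ratios of the organs were less than 2-fold apart, with a median difference of 0.29 on the log2 scale, and in 0 pairs were they at least 4-fold apart. The widest pairs, named after their values were seen, were those of TR32735, whose members lay between 0.01 and 0.22 while a form of 1727 bases lay at -1.59. The 57 pairs came from 20 genes and use some forms more than once. Pairs of unrelated unigenes were not compared. Less than 2-fold from equality were 85.4% of the members and 65.0% of all compared unigenes, so many such pairs would lie close too. The pairs share reads to an extent that was not tested.

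A second set of root FPKM values, in the series table, gave most very long unigenes a similar level and some a very different one. Of the 232 members with at least 50 root counts, 51 (22.0%) were at least 1.5-fold away from the root file once the median ratio of 1.02 was divided out, against 30.0% of all 14857 such unigenes. Of these, 36 were lower in the table or at 0 there and 15 were higher. The table listed 12 of the 232 members at 0 (5.17%, against 6.19%), and 17 of all 247 members (6.88%, against 28.5% of all unigenes). Of the unigenes of at least 4000 and under 5000 bases it listed 8.88% at 0. The 17 are taken at any root count. These 17 had 11 to 394 root counts in the file. The highest of these, again named after its value was seen, was Unigene50372 of TR25435, at 18.6 FPKM in the file and 0 in the table, while the other member of that gene, Unigene50373, was at 17.99 and 3.50 FPKM.

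The disagreement was spread unevenly over the identifier forms. It touched 28 of 73 members of the TR form (38.4%), 8 of 43 scaffolds (18.6%), 13 of 100 leaf-named contigs (13.0%) and 2 of 16 unigenes with a C identifier (12.5%). The share among all unigenes of each form was not taken, so whether this unevenness is particular to very long unigenes cannot be told. Within the TR form it touched 14 of the 25 members that share a gene with another member (56.0%) and 14 of the other 48 (29.2%). The called members with the most counts were close in both sets: of the 5 aerial-higher members with the whole interval past 4-fold and the 3 root-higher members, 0 were 1.5-fold or further apart. Of the 8 aerial-higher members with few counts, 7 were, and 3 of these are listed at 0 in the table, so their root levels are uncertain. These 8 had 9 to 21 root counts, under the minimum of 50 used for the shares above. The share apart among all unigenes with so few root counts was not taken. Whether 7 of 8 is particular to these members therefore cannot be told. Of all 15 members under 50 root counts, 5 are listed at 0. Unigene13473 was at 2602 FPKM in the file and 3019 in the table. Unigene36340 was at 18.1 and 22.0 FPKM, Unigene12537 at 10.7 and 9.46 FPKM, Unigene36171 at 44.1 and 43.8 FPKM, and Unigene13041 at 38.6 and 50.9 FPKM. Among the members with few counts, Unigene57768 of TR30905 was at 0.69 FPKM in the file and 1.62 in the table, and Unigene57765 of the same gene at 0.38 and 0.06. Unigene12117, named after its values were seen, was at 0.57 and 2.67 FPKM, the highest ratio of table to file among the members at 4.68.

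**Figure D4:**
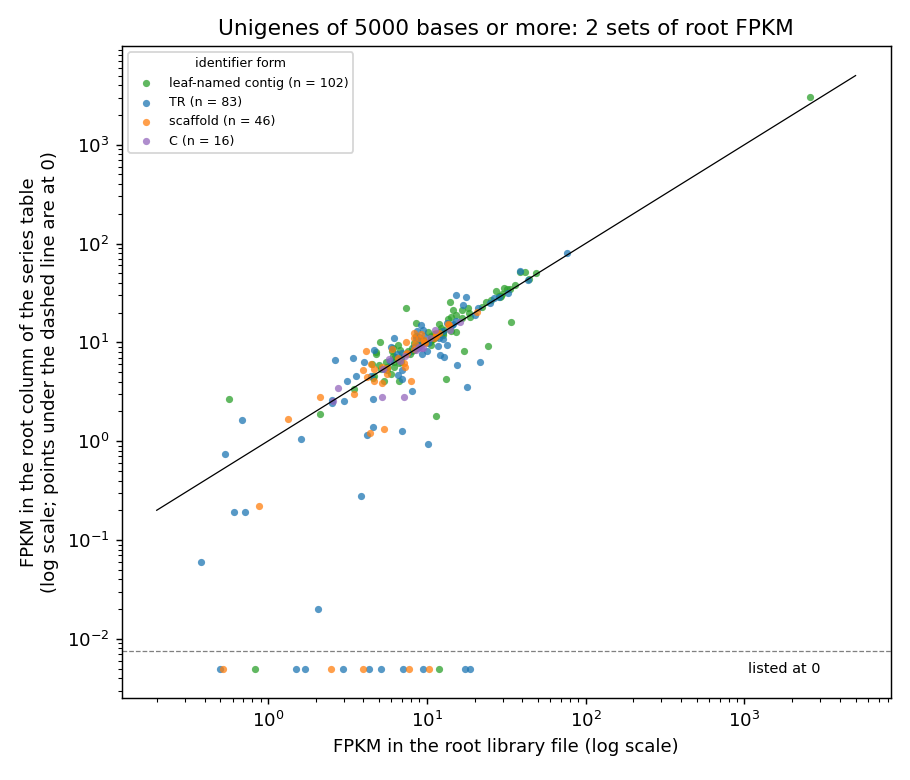
Root FPKM of the 247 very long unigenes in the root library file (x axis, log scale) and in the root column of the series table (y axis, log scale), coloured by identifier form; the line marks equal values, and points under the dashed line are listed at 0 in the table. Most points follow the line up to Unigene13473 at 2602 and 3019 FPKM, and 17 points are at 0, of which 10 are of the TR form.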

How the data were processed

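Poly(A)-selected, strand-specific RNA libraries of aerial tissues and roots, 1 each, were sequenced, per the labels' protocols. The submitters' processing notes name Trimmomatic and RSEM, with no versions, and no assembler or aligner is given in the sources used here. Per the file headers, the authors deposited for each transcript an expected count (unnormalised, whole throughout), TPM, FPKM and an isoform percentage; lengths are in bases. A table for the whole series, deposited by the authors, lists unigene numbers and another FPKM per library, made in a way the sources used here do not state. Its root column belongs by name to the root library, and 1 further column, named for leaf, was left unused because no label says leaf.

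Members were the unigenes of at least 5000 bases. CPM ratios were taken over the whole table, with at least 20 counts, a floor of 3 counts per library and 95% exact (Clopper-Pearson) intervals from the division of reads between libraries. Total depth was 5351257 and 4207068 counts, which gave the members a median interval half-width of 1.21-fold. These intervals hold counting error alone, and without molecular identifiers reads are not independent molecules. With 1 library per tissue there was no test. The named unigenes are the 5 longest, the 3 highest by TPM in each library, the 2 per direction whose interval begins furthest from equality, the 2 on each side of the length threshold and the genes with the most members; others are said to be chosen after their values. The members and this rule were chosen with earlier results of these data known. Alternatives used edgeR 4.0.16, DESeq2 1.42.0 and R 4.3.3; the rest used Python 3.11.15, numpy 2.4.6, scipy 1.17.1 and pandas 2.3.3.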

Additional observations from a re-analysis of the deposited data

How the results depend on the processing

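The median log2 ratio of the very long unigenes changed sign with the scaling, from 0.22 to -0.045 with TMM and to -0.049 with DESeq2 size factors, which shift all ratios alike. Either scaling called 15 members for aerial tissues and 3 for roots; under TMM these included the 13 and 3 called with library totals, and the shares of all compared unigenes were 9.82% and 5.07%. The aerial-higher count was 6 with at least 100 counts, 5 with FPKM and a pseudocount of 1, and 5 with the whole interval past 4-fold. A threshold of 4000 bases called 37 and 16 unigenes, and one of 6000 bases 6 and 1, by construction. A fold of 2 called 23 and 13, and a fold of 8 called 3 and 0. In aerial tissues the members held 2.44% of expected counts and 0.502% of the TPM of unigenes of at least 500 bases; in roots they held 3.30% and 0.643%. Their TPM shares were 1.03% and 0.985% from 4000 bases, 0.235% and 0.340% from 6000 bases, 0.303% and 0.259% without Unigene13473, and 0.234% and 0.254% without the 4 members highest in aerial tissues. The log2 ratio of the shares, 0.32 as reported, turned to -0.062 from 4000 bases and to -0.23 without Unigene13473, and was 0.12 without those 4. Of 59 alternatives, 29 kept a count to under 1.5 times its reported size or a value inside its interval, thinning of the aerial library (11 and 3) among them. No library could be left out. No paired analysis was possible because there was 1 library for each organ.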
